A study of Gallus gallus with 18 samples.

Results

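The genes described here are 10 members of the Notch signalling pathway in the chicken retinal pigment epithelium (RPE), the pigmented sheet behind the neural retina: the ligands *DLL1*, *DLL4*, *JAG1* and *JAG2*, the receptors *NOTCH1* and *NOTCH2*, the glycosyltransferase *LFNG*, and the target genes *HES5*, *HEY1* and *HEY2*. They were taken by symbol from the table of normalized counts, which held a row for each of the 10 names among its 18336 genes, and all 10 passed the filter on low values. The study compared RPE at embryonic day 4 (E4), when it can still be reprogrammed to neural retina, with RPE at E5, when this no longer occurs, and the comparisons below ask how transcripts of the Notch pathway stood across that window and after injury. At each stage there were 3 conditions, namely RPE collected 6 h after the neural retina was surgically removed and a heparin bead soaked in FGF2 was placed in the eye cup (6hPR + FGF2), RPE collected 6 h after the surgery with no FGF2 (6hPR), and RPE from unoperated developing eyes (developing). Each of the 6 groups had 3 polyA RNA-seq libraries, and each library was a pool of 3 RPE sheets, from a single eye per embryo, from which mesenchyme had been debrided. All groups were wild-type chicken embryos as far as the labels and methods say, at Hamburger Hamilton stage 24 for E4 or 26 for E5. The labels name White Leghorn eggs, whereas the methods of the study name a pathogen-free flock for RNA-seq.

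Notch signalling passes between neighbouring cells. Delta-like and Jagged ligands on the sending cell bind NOTCH receptors on the receiving cell, the receptor is cut by an ADAM protease and then by gamma-secretase, and its freed intracellular domain joins RBPJ and a Mastermind coactivator to switch on repressors of the HES and HEY families. In the neural retina this signalling is known for keeping progenitors undifferentiated while neighbours that express Delta ligands become neurons, and in blood vessels *DLL4* and *NOTCH1* are known for setting the balance between tip and stalk cells.

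The libraries held 50.7 to 73.0 M reads on genes, and no member was at 0 in any library, with *HES5* reaching the fewest reads (23 in a library). The 12 RPE markers were above 0 in every library, which cannot by itself check RPE identity, because the endothelial markers measured were too. By group median the RPE markers summed to 1163910 normalized counts in E5 developing RPE and 573662 in E4 developing RPE. Other cell types left transcripts as well. The 7 erythrocyte markers that were measured summed to 297567 to 1233660 normalized counts. They exceeded the RPE sum in every library of E4 6hPR and of E4 6hPR + FGF2, and in E4 developing replicates 1 and 2. All 13 endothelial markers that were measured were above 0 in every library, and 14 neural retina neuron markers summed to between 11586 and 33882 normalized counts. The highest neuron sum was in E5 developing replicate 2, the library in which 12 of the 14 neuron markers were at their highest. E5 6hPR replicate 3 and E4 6hPR + FGF2 replicate 3 stood apart in the W-linked *HINTW*, at 0 and 60.4 normalized counts against 20330.0 or more in each of the other libraries. Results are therefore also given without these 3 libraries where that ends a call. In such bulk libraries fewer cells of a type and less RNA per cell cannot be told apart. The p values measure only the spread between pools within groups, estimated jointly over the 6 groups.

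Across 12 comparisons, 37 of the 120 tests of the members passed the limma threshold, an adjusted p no higher than 0.05, and are referred to as called. Differences are fitted log2 fold changes with their standard error (SE), computed on log2 of the normalized count plus 0.5. Against E5 developing RPE, 6 of the 10 genes were lower in E5 6hPR + FGF2 and none was higher, beside 15.1% of all genes higher and 13.7% lower. In E5 6hPR 2 of 10 were lower than in E5 developing RPE, beside 9.92% of all genes higher and 9.09% lower. Between E5 6hPR + FGF2 and E5 6hPR 4 of 10 were lower, beside 13.9% of all genes higher and 12.3% lower. At E4 the directions were mixed. In E4 6hPR + FGF2 2 members were higher and 2 lower than in developing RPE, beside 9.82% of all genes higher and 10.2% lower. In E4 6hPR 3 were higher and 1 lower, beside 5.68% of all genes higher and 7.90% lower, and 1 was lower in E4 6hPR + FGF2 than in E4 6hPR, beside 4.99% of all genes higher and 3.28% lower. Between stages, 1 was higher and 2 lower at E5 in 6hPR + FGF2, beside 16.7% of all genes higher and 12.8% lower. In 6hPR 2 were lower at E5, beside 11.3% of all genes higher and 8.41% lower, and in developing RPE 5 of 10 were higher at E5, beside 10.8% of all genes higher and 11.1% lower. The response to 6hPR + FGF2 was lower at E5 than at E4 for 4 members, beside 3.14% of all genes higher and 2.42% lower, and the response to 6hPR for 2, beside 1.77% of all genes higher and 1.21% lower. The change between 6hPR and 6hPR + FGF2 differed between the stages for 0 members in limma, beside 1.63% of all genes higher and 0.913% lower, where 4 had an unadjusted p below 0.05, for 1 in edgeR and for 4 in DESeq2. Each comparison was refitted under 12 alternative settings of pseudocount, filter, scaling, model and test, and without each of its libraries in turn. Of the 37 calls 16 held in all 12 settings, 17 held without each library and 11 held in both, and none changed direction. Settings that end a call are named with the gene, apart from the replicate block, whose effect is given with the other processing choices. A fit of the compared groups alone, which estimates the spread from 3 libraries per group in place of all 18, ended 16 of them. The 6hPR + FGF2 and 6hPR groups of a stage are compared with the same developing libraries, so their differences from developing RPE are not independent of each other.

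**Figure D1:**
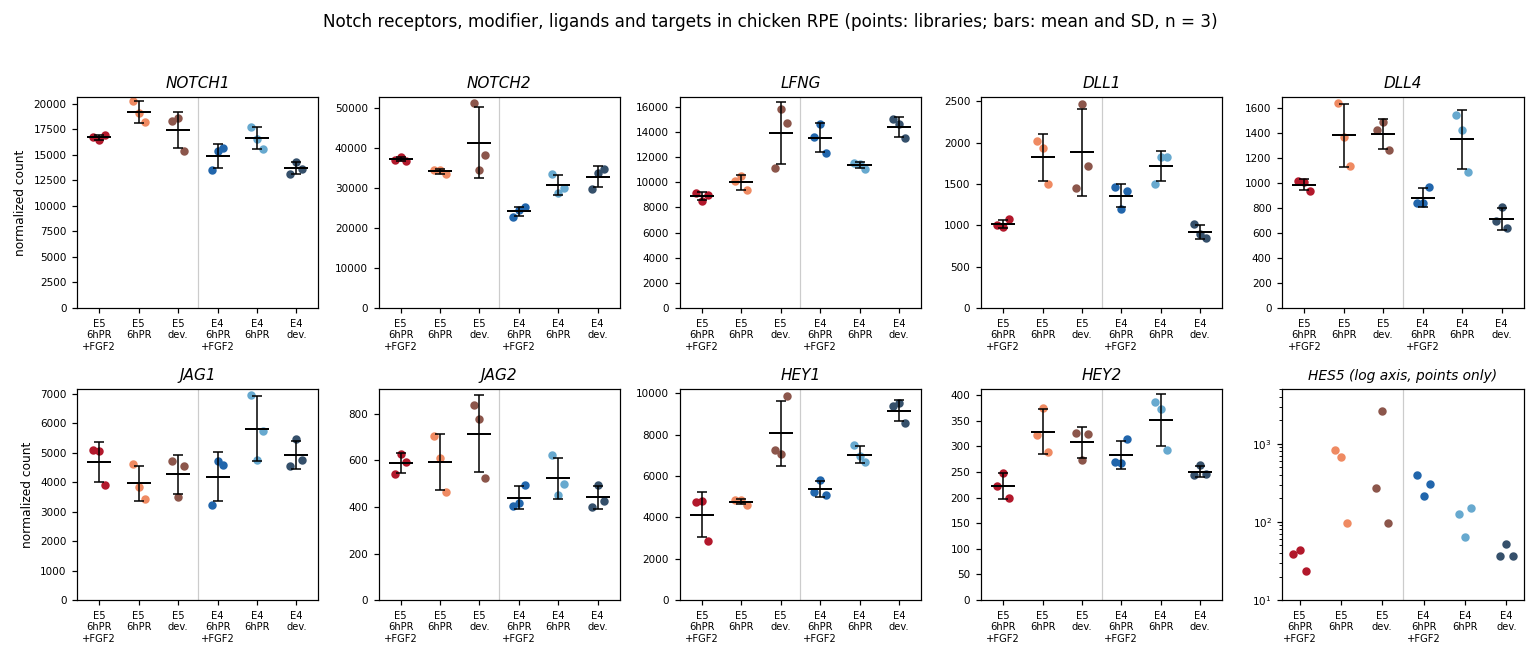
Normalized count (vertical axis) of each Notch gene in the 6 groups (horizontal axis), with a point per library and a black bar and error bar for the mean and SD of 3 libraries. The *HES5* panel has a log axis and points only. *DLL1* and *DLL4* were lowest in developing RPE at E4 and in 6hPR + FGF2 at E5 among the groups of their stage, and *HES5* ran from 23.4 to 2598.

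**Figure D2:**
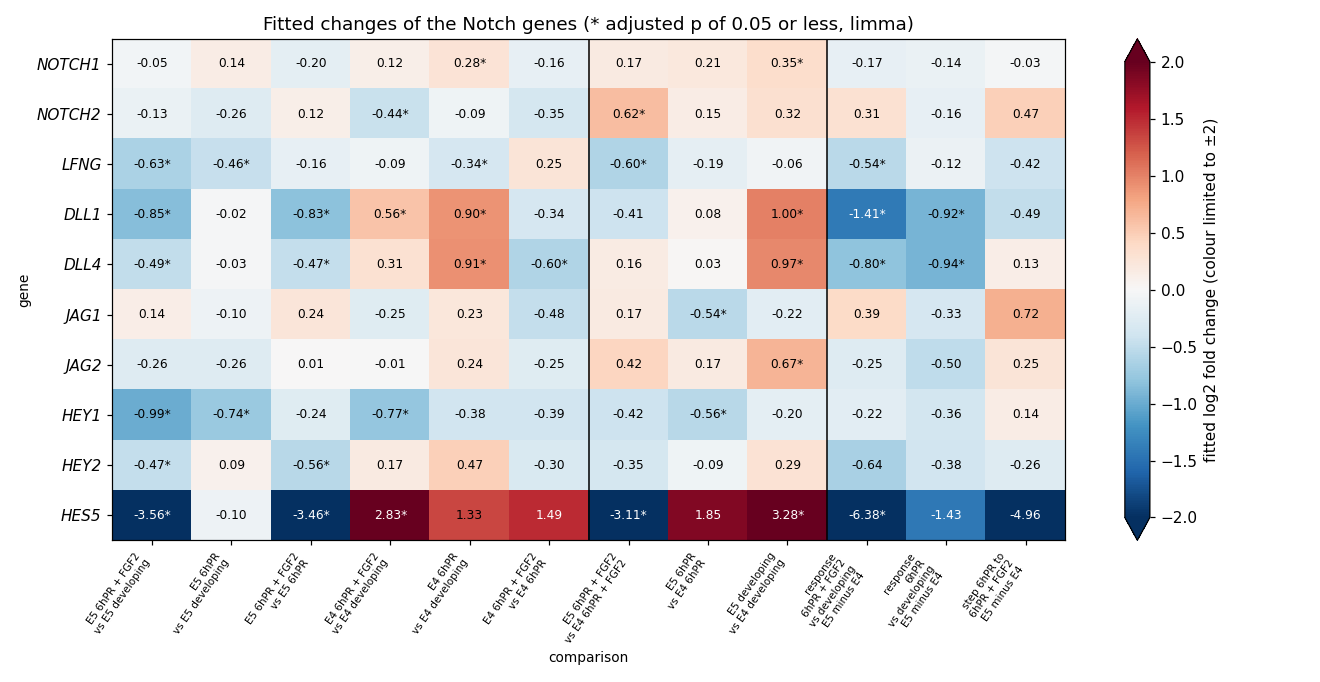
Fitted log2 fold change of each gene (rows) in each of the 12 comparisons (columns: 6 between conditions, 3 between stages, 3 differences of a response between stages), coloured from blue (lower) to red (higher) within limits of ±2, with an asterisk where limma called the gene. *HES5* had a change of −3.56 against developing RPE in E5 6hPR + FGF2 and 2.83 in E4 6hPR + FGF2.

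*DLL1*, a Delta ligand of nascent neurons and their progenitors, was higher after surgery at E4 and lower with FGF2 at E5. At E4 its normalized counts were 1459.8, 1203 and 1419 in 6hPR + FGF2 and 1504, 1829 and 1822 in 6hPR, against 1011, 901 and 848 in developing RPE. Both treated groups lay wholly above developing RPE, with log2 fold changes of 0.56 (SE 0.17, adjusted p = 0.025) for 6hPR + FGF2 and 0.90 (SE 0.17, adjusted p = 0.0020) for 6hPR. At E5 the counts were 1003, 985 and 1075 in 6hPR + FGF2, 2027, 1941 and 1503 in 6hPR and 1458, 2471 and 1723 in developing RPE. The E5 6hPR + FGF2 libraries lay below every library of both other E5 groups, at −0.85 (SE 0.17, adjusted p = 0.0012) against developing RPE and −0.83 (SE 0.17, adjusted p = 0.0023) against 6hPR, while 6hPR differed from developing RPE by −0.02 (SE 0.17, adjusted p = 0.96). In developing RPE *DLL1* was higher at E5 than at E4, by 1.00 (SE 0.17, adjusted p = 0.00052). The difference between the stages was −1.41 (SE 0.23, adjusted p = 0.0036) for the response to 6hPR + FGF2, which held in all alternatives, and −0.92 (SE 0.23, adjusted p = 0.0456) for the response to 6hPR. By group mean *DLL1* ran, high to low, from E5 developing (1884) through E5 6hPR (1823), E4 6hPR (1718), E4 6hPR + FGF2 (1361) and E5 6hPR + FGF2 (1021) to E4 developing (920.2), and none of the neighbours in that order that were compared was called. The highest *DLL1* value of all libraries was in E5 developing replicate 2. Without that library the change of E5 6hPR + FGF2 against developing RPE was −0.64, and that of E5 against E4 developing RPE was 0.79. The E5 call against developing RPE was lost in a fit of the compared groups alone (adjusted p 5.0e-06 to 0.0527 over the 12 settings), and that between E5 and E4 developing RPE in a fit of the compared groups alone (adjusted p 9.4e-08 to 0.0517 over the 12 settings). The E4 call with FGF2 was lost without E4 6hPR + FGF2 replicates 1 or 3 or E4 developing replicates 2 or 3 (adjusted p 0.070 to 0.093). The call on the 6hPR response was lost in quantile normalization, limma without the trend, a fit of the compared groups alone and the fit without the 3 libraries (adjusted p 0.0041 to 0.13 over the 12 settings), and without E5 6hPR replicates 2 or 3, E5 developing replicate 2, E4 6hPR replicates 1, 2 or 3 or E4 developing replicates 1, 2 or 3 (adjusted p 0.057 to 0.12).

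*DLL4*, the Delta ligand of sprouting endothelium that is also expressed by retinal progenitors leaving the cell cycle, was lower in 6hPR + FGF2 than in 6hPR at both stages. At E5 it had 1015, 1009.7 and 934 normalized counts in 6hPR + FGF2, against 1636, 1369 and 1135 in 6hPR and 1422, 1491 and 1263 in developing RPE. No library of E5 6hPR + FGF2 reached the lowest of the other E5 libraries, and the changes were −0.47 (SE 0.15, adjusted p = 0.029) against 6hPR and −0.49 (SE 0.15, adjusted p = 0.020) against developing RPE. At E4 it had 839.6, 838 and 968 in 6hPR + FGF2, 1541, 1424 and 1086 in 6hPR and 694, 811 and 637 in developing RPE. Here 6hPR stood above developing RPE by 0.91 (SE 0.15, adjusted p = 0.00081), 6hPR + FGF2 stood below 6hPR at −0.60 (SE 0.15, adjusted p = 0.020), and 6hPR + FGF2 differed from developing RPE by 0.31 (SE 0.15, adjusted p = 0.17). *DLL4* was also higher in E5 than in E4 developing RPE, by 0.97 (SE 0.15, adjusted p = 0.00030), with no overlap. The response differed between the stages by −0.80 (SE 0.21, adjusted p = 0.037) for 6hPR + FGF2 and by −0.94 (SE 0.21, adjusted p = 0.026) for 6hPR. The call at E5 against 6hPR was lost in a fit of the compared groups alone (adjusted p 0.0081 to 0.060 over the 12 settings), and without E5 6hPR + FGF2 replicates 1, 2 or 3 or E5 6hPR replicates 1 or 2 (adjusted p 0.063 to 0.12). That against E5 developing RPE was lost in the fit without the 3 libraries (adjusted p 0.0061 to 0.0538 over the 12 settings), and without E5 6hPR + FGF2 replicate 3 or E5 developing replicate 2 (adjusted p 0.066 to 0.068). That of E4 6hPR + FGF2 against 6hPR was lost in a fit of the compared groups alone (adjusted p 0.0016 to 0.14 over the 12 settings), and without E4 6hPR + FGF2 replicates 1 or 2 or E4 6hPR replicate 1 (adjusted p 0.065 to 0.11). The stage difference in the 6hPR + FGF2 response was lost in limma without the trend and the fit without the 3 libraries (adjusted p 0.0053 to 0.096 over the 12 settings), and without E5 6hPR + FGF2 replicates 1, 2 or 3, E5 developing replicate 2, E4 6hPR + FGF2 replicates 1, 2 or 3 or E4 developing replicates 1 or 3 (adjusted p 0.0538 to 0.091). That in the 6hPR response was lost in a fit of the compared groups alone and the fit without the 3 libraries (adjusted p 0.0011 to 0.10 over the 12 settings), and without E5 6hPR replicates 2 or 3, E4 6hPR replicate 1 or E4 developing replicates 1 or 3 (adjusted p 0.058 to 0.073).

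Endothelial transcripts moved with *DLL4*. The genes whose log2 values across the 18 libraries were most like those of *DLL4* included *FLT1* (Pearson r = 0.90) and *KDR* (r = 0.87), the endothelial receptors for VEGF, and *NOTCH1* (r = 0.86), and *DLL4* had r = 0.83 with the summed endothelial list. These are descriptions over libraries that share group differences and depth. The 13 endothelial markers summed to 57203 to 64898 normalized counts in E5 6hPR + FGF2, 65146 to 79074 in E5 6hPR and 75957 to 101026 in E5 developing RPE, where 9 of the 13 were lower and 1 higher in 6hPR + FGF2 than in developing RPE (beside 13.7% and 15.1% of all genes). At E4 the sums were 59599 to 65123 in 6hPR + FGF2, 61829 to 81105 in 6hPR and 52589 to 56895 in developing RPE, with 6 of 13 higher in 6hPR than in developing RPE (beside 5.68% of all genes), and 10 of 13 were higher in E5 than in E4 developing RPE (beside 10.8%). Between 6hPR + FGF2 and 6hPR, 2 of 13 were lower and 1 higher at E5 (beside 12.3% and 13.9% of all genes), and 3 lower and 1 higher at E4 (beside 3.28% and 4.99%). *DLL1* had r = 0.655 with the endothelial sum, and its correlations with neural retina transcripts are given with those of *HES5*. Markers of mural and smooth muscle cells, which wrap vessels, moved as well. The 5 that were measured summed to 22864 to 29954 in E5 6hPR + FGF2, 31486 to 37460.2 in E5 6hPR and 20504 to 41832 in E5 developing RPE, and to 25136 to 30647 in E4 6hPR + FGF2, 14390.0 to 25531 in E4 6hPR and 8002 to 8448 in E4 developing RPE. Of these 5, 4 were higher in E4 6hPR + FGF2 (beside 9.82% of all genes) and 3 in E4 6hPR (beside 5.68%) than in E4 developing RPE, and 3 in E5 than in E4 developing RPE (beside 10.8%), while 0 were lower in E5 6hPR + FGF2 than in E5 developing RPE (beside 13.7%). With the mural sum *NOTCH1* had r = 0.60, *DLL4* 0.60 and *DLL1* 0.48. Other lists gave higher values for *NOTCH1*, at r = 0.66 with the sum of 5 leukocyte markers and 0.65 with that of 12 RPE markers. *DLL4* had r = 0.68 with the sum of 11 periocular mesenchyme markers, and *LFNG* had −0.71 with the leukocyte sum. The part of RNA from endothelial, mural and these other cells in the differences of *DLL4*, *DLL1*, *NOTCH1* and the other members was not tested.

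The Jagged ligands gave fewer calls. *JAG1*, a ligand of the optic vesicle and ciliary margin among many other tissues, had 4614, 3849 and 3441 normalized counts in E5 6hPR, against 6966, 4755 and 5723 in E4 6hPR. Every E5 library was below every E4 library, with a fitted change of −0.54 (SE 0.18, adjusted p = 0.042). In the other groups it had 3903 to 5100.2 in E5 6hPR + FGF2, 3496 to 4726 in E5 developing, 3238 to 4728 in E4 6hPR + FGF2 and 4548 to 5469 in E4 developing RPE, and no further comparison was called. *JAG2*, the other Serrate-type ligand, had 839.5, 780.2 and 526 in E5 developing RPE, against 401, 495 and 427 in E4 developing RPE. The groups did not overlap and the difference was 0.67 (SE 0.19, adjusted p = 0.018), the only call for this gene among the 12 comparisons. The *JAG1* call was lost in limma without the trend, a fit of the compared groups alone and the fit without the 3 libraries (adjusted p 0.013 to 0.14 over the 12 settings), and without E5 6hPR replicates 2 or 3 or E4 6hPR replicates 1 or 3 (adjusted p 0.10 to 0.18). The *JAG2* call was lost in a fit of the compared groups alone (adjusted p 0.0025 to 0.12 over the 12 settings), and without E5 developing replicates 1 or 2 or E4 developing replicates 1 or 3 (adjusted p 0.0549 to 0.082).

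Of the receptors, *NOTCH1* was higher in E5 than in E4 developing RPE, and *NOTCH2* was higher at E5 than at E4 in 6hPR + FGF2. *NOTCH1* had 18329, 18618 and 15375 normalized counts in E5 developing RPE, against 13121, 14299 and 13628 in E4 developing RPE. The lowest E5 library was above the highest E4 library, and the log2 fold change was 0.35 (SE 0.08, adjusted p = 0.0070). Its counts in E4 6hPR were 17729, 16545 and 15571, above every E4 developing library by 0.28 (SE 0.08, adjusted p = 0.035). In the remaining groups it had 16498 to 16996 in E5 6hPR + FGF2, 18207 to 20295 in E5 6hPR and 13518 to 15673 in E4 6hPR + FGF2, and across all 18 libraries its highest value was 1.55 times its lowest. *NOTCH1* also stood higher at E5 without overlap in the treated groups, though neither difference was called. These were 0.21 (SE 0.08, adjusted p = 0.091) in 6hPR and 0.17 (SE 0.08, adjusted p = 0.13) in 6hPR + FGF2. *NOTCH2* had 37072, 37725 and 36789 in E5 6hPR + FGF2, against 22894, 24429.9 and 25181 in E4 6hPR + FGF2, and the stages were set apart by 0.62 (SE 0.11, adjusted p = 0.00098). E4 6hPR + FGF2 was also below E4 developing RPE, which had 29831, 33903 and 34682, at −0.44 (SE 0.11, adjusted p = 0.011), and E4 6hPR had 33546, 28827 and 29924, with no call against either. At E5, *NOTCH2* had 34585, 34449 and 33464 in 6hPR and 51339.8, 34587 and 38239.7 in developing RPE, and no pair of E5 conditions was called for it. Between E5 and E4 developing RPE *NOTCH2* differed by 0.32 (SE 0.11, adjusted p = 0.055), not called. That difference was called in 5 of the 12 settings and in 2 of the fits without a single library. The stage difference in its response to 6hPR + FGF2 was not called either (0.31, SE 0.16, adjusted p = 0.27). The *NOTCH1* call between stages was lost in a fit of the compared groups alone (adjusted p 0.00035 to 0.085 over the 12 settings), and the lower *NOTCH2* of E4 6hPR + FGF2 without E4 developing replicate 3 (adjusted p = 0.0501). The rise of *NOTCH1* in E4 6hPR was lost in limma without the trend, a fit of the compared groups alone and edgeR (adjusted p 0.0082 to 0.060 over the 12 settings), and without E4 6hPR replicates 1 or 2 or E4 developing replicates 1, 2 or 3 (adjusted p 0.0526 to 0.14).

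*LFNG*, the Golgi enzyme that lengthens the O-fucose sugars of NOTCH receptors and thereby favours their activation by Delta over Jagged ligands, was lower after surgery at E5 with and without FGF2. It had 9162, 8511 and 9017 normalized counts in E5 6hPR + FGF2 and 10109.9, 10464 and 9365 in E5 6hPR, against 11101, 15835 and 14739 in E5 developing RPE. Both treated groups lay below every developing library, at −0.63 (SE 0.11, adjusted p = 0.00035) for 6hPR + FGF2 and −0.46 (SE 0.11, adjusted p = 0.0058) for 6hPR. At E4 it had 13607, 14650.4 and 12358 in 6hPR + FGF2, 11504, 11441 and 11068 in 6hPR and 14992, 14655 and 13498 in developing RPE. Only the E4 6hPR libraries lay wholly below developing RPE, at −0.34 (SE 0.11, adjusted p = 0.042), while 6hPR + FGF2 overlapped it (−0.09, SE 0.11, adjusted p = 0.62). *LFNG* was lower in E5 than in E4 6hPR + FGF2, at −0.60 (SE 0.11, adjusted p = 0.00079), and its response to 6hPR + FGF2 differed between the stages by −0.54 (SE 0.15, adjusted p = 0.0468). The fall in E5 6hPR was lost in a fit of the compared groups alone and the fit without the 3 libraries (adjusted p 0.00018 to 0.15 over the 12 settings). The fall in E4 6hPR was lost in TMM scaling, quantile normalization and limma without the trend (adjusted p 0.013 to 0.15 over the 12 settings), and without any single library of the groups (adjusted p 0.060 to 0.14). The stage difference was lost in limma without the trend, a fit of the compared groups alone, the fit without the 3 libraries and edgeR (adjusted p 0.0068 to 0.11 over the 12 settings), and without E5 6hPR + FGF2 replicates 1, 2 or 3, E5 developing replicates 2 or 3, E4 6hPR + FGF2 replicates 1 or 2 or E4 developing replicates 1, 2 or 3 (adjusted p 0.064 to 0.11).

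*HES5*, a basic helix-loop-helix repressor that Notch switches on in neural progenitors, varied most among the members, with a highest value 111 times its lowest. At E4 it had 404, 215 and 305 normalized counts in 6hPR + FGF2 and 124, 63.4 and 149 in 6hPR, against 37.1, 52.5 and 37.1 in developing RPE. Every treated library exceeded every developing library, and the log2 fold change was 2.83 (SE 0.93, adjusted p = 0.043) with FGF2 and 1.33 (SE 0.93, adjusted p = 0.41), not called, without it. The 2 treated E4 groups did not overlap, but E4 6hPR + FGF2 against E4 6hPR was not called, at 1.49 (SE 0.93, adjusted p = 0.38). No setting or fit without a single library called that difference. At E5 the group means fell in the opposite order, with 38.4, 44.2 and 23.4 in 6hPR + FGF2, 831, 686 and 97.1 in 6hPR and 269.7, 2598 and 96.5 in developing RPE. The 3 E5 6hPR + FGF2 libraries were below all others of that stage, at −3.56 (SE 0.93, adjusted p = 0.0093) against developing RPE and −3.46 (SE 0.93, adjusted p = 0.014) against 6hPR, whereas the 6hPR and developing libraries overlapped (−0.10, SE 0.93, adjusted p = 0.97). Between stages *HES5* was lower in E5 than in E4 6hPR + FGF2, at −3.11 (SE 0.93, adjusted p = 0.021), and higher in E5 than in E4 developing RPE, by 3.28 (SE 0.93, adjusted p = 0.019). Its response to 6hPR + FGF2 differed between the stages by −6.38 (SE 1.32, adjusted p = 0.012), a call that held in all 12 settings and without each library. The change between 6hPR and 6hPR + FGF2 differed between the stages by −4.96 (SE 1.32, adjusted p = 0.056), not called in limma.

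The E5 values of *HES5* rested on few libraries. Without E5 developing replicate 2 the change of E5 6hPR + FGF2 against developing RPE was −2.22 (adjusted p = 0.041), without replicate 3 it was −4.60, and the difference of E5 from E4 developing RPE was 1.94 (adjusted p = 0.077) without replicate 2 and 4.31 without replicate 3. The stage difference in the 6hPR + FGF2 response was −5.05 without E5 developing replicate 2 and −7.42 without replicate 3. Against E5 6hPR the change of E5 6hPR + FGF2 was −4.45 without E5 6hPR replicate 3, and the call was lost without E5 6hPR replicates 1 or 2 (adjusted p 0.0508 to 0.064). Without the 3 libraries together *HES5* was called higher in E5 6hPR than in E5 developing RPE, by 2.22 (adjusted p = 0.020, range 0.020 to 0.99 over the 12 settings), and higher than in E4 6hPR, by 2.83 (adjusted p = 0.0025, range 0.0025 to 0.26 over the 12 settings). The 3 libraries held the highest *HES5* of E5 developing RPE (2598) and the lowest of E5 6hPR (97.1). Leaving them out therefore raised these differences by itself, and the calls cannot decide whether *HES5* rose in E5 6hPR. The call against E5 developing RPE was lost in a fit of the compared groups alone (adjusted p 2.3e-06 to 0.13 over the 12 settings). The call of E5 over E4 developing RPE was lost in a fit of the compared groups alone (adjusted p 1.1e-05 to 0.18 over the 12 settings), and without E5 developing replicate 2 or E4 developing replicates 1 or 3 (adjusted p 0.055 to 0.077). The E4 rise with FGF2 was lost in quantile normalization and limma without the trend (adjusted p 0.0019 to 0.066 over the 12 settings), and without any single library of the groups (adjusted p 0.068 to 0.13). The stage difference within 6hPR + FGF2 was lost without E5 6hPR + FGF2 replicates 1 or 3 or E4 6hPR + FGF2 replicate 1 (adjusted p 0.0518 to 0.067). In the RefSeq table for GRCg7b the span of *HES5* overlaps 2 other protein-coding genes, that of *JAG1* 2 and that of *DLL1* 1, and whether counting used the strand is not given in the sources used here, so reads of these genes may be shared with their neighbours.

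Among transcripts of the neural retina, *ATOH7* moved with *HES5* at E5, whereas the summed marker lists did not follow it in every group. *ATOH7*, a proneural factor of retinal ganglion cell precursors, had 16.9, 37.5 and 19.3 normalized counts in E5 6hPR + FGF2, 877, 589 and 60.0 in E5 6hPR and 625, 4744 and 52.5 in E5 developing RPE. Within E5 6hPR and within E5 developing RPE the library lowest in *ATOH7* was also lowest in *HES5*, and in developing RPE the same library was highest in both. At E4, *ATOH7* had 16.8, 41.2 and 6.47 in 6hPR + FGF2, 7.03, 12.9 and 0 in 6hPR and 8.79, 7.00 and 11.3 in developing RPE. In E4 6hPR + FGF2, *HES5* was at 215 to 404 with *ATOH7* at 6.47 to 41.2, whereas E5 6hPR replicates 1 and 2 had 831 and 686 for *HES5* with 877 and 589 for *ATOH7*. Other neural retina markers differed from *ATOH7* within E4 6hPR + FGF2. Replicate 1, the highest there in *HES5*, was also highest in *FABP7* (13796, 4463 and 5398) and *STMN2* (710, 42.1 and 100). Replicate 2 was highest in *ATOH7* and *SIX6*, and replicate 3 in *NEUROD1* and *POU4F3*. The 14 neuron markers summed to 15869 to 18184 in E5 6hPR + FGF2, 17094 to 20744 in E5 6hPR, 12126 to 33882 in E5 developing, 11586 to 15635 in E4 6hPR + FGF2, 13077 to 15451 in E4 6hPR and 13121 to 16998 in E4 developing RPE. Of these 14, 2 were lower in E5 6hPR + FGF2 than in E5 developing RPE (beside 13.7% of all genes), and 7 were higher in E5 than in E4 developing RPE (beside 10.8%). In E4 6hPR + FGF2, 4 were higher and 0 lower than in E4 developing RPE (beside 9.82% and 10.2% of all genes). There *NEUROD1* had 227, 265 and 425 against 7.82, 0 and 76.7 in E4 developing RPE, and *POU4F3* 9.45, 51.7 and 61.5 against 0, 0 and 6.46. Between E5 6hPR + FGF2 and E5 6hPR 0 of 14 were called lower (beside 12.3% of all genes). By group median the neuron sum was 16945 in E5 6hPR + FGF2 and 14102 in E5 developing RPE. In every library *TUBB3* had the highest count of the 14 and so weighed most in that sum. The median log2 fold change of the 14 was −0.57 in E5 6hPR + FGF2 against E5 developing RPE and −0.51 against E5 6hPR. In E4 6hPR + FGF2 against E4 developing RPE it was 0.84. The 9 neural retina progenitor markers summed to 23448 to 33143 in E5 6hPR + FGF2, 33053 to 39773 in E5 6hPR and 10002 to 43759 in E5 developing RPE, and to 35047 to 48232 in E4 6hPR + FGF2, 24642 to 47017 in E4 6hPR and 15916 to 16943 in E4 developing RPE. Of these 9, 3 were higher and 1 lower in E5 6hPR + FGF2 than in E5 developing RPE (median log2 fold change 0.76), where *HES5* was lower. In E4 6hPR + FGF2, 4 were higher and 0 lower than in E4 developing RPE (median 1.35), where *HES5* was higher. Of all genes, 15.1% were higher and 13.7% lower in the E5 comparison, and 9.82% higher and 10.2% lower in the E4 comparison. Over the 18 libraries *HES5* had r = 0.54 with the neuron sum and 0.51 with the progenitor sum. *DLL1* had r = 0.46 with the neuron sum, 0.48 with the progenitor sum and 0.79 with *HES5*. The part of neural retina RNA in the differences of *HES5* and *DLL1* was not tested. The genes most like *HES5* over the 18 libraries were *BHLHE22* (r = 0.92), a transcription factor of retinal neurons, the creatine kinases *CKB* (r = 0.88) and *CKMT1B* (r = 0.88), *POU4F3* (r = 0.81), a ganglion cell factor, and *CBLN1* (r = 0.81).

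**Figure D3:**
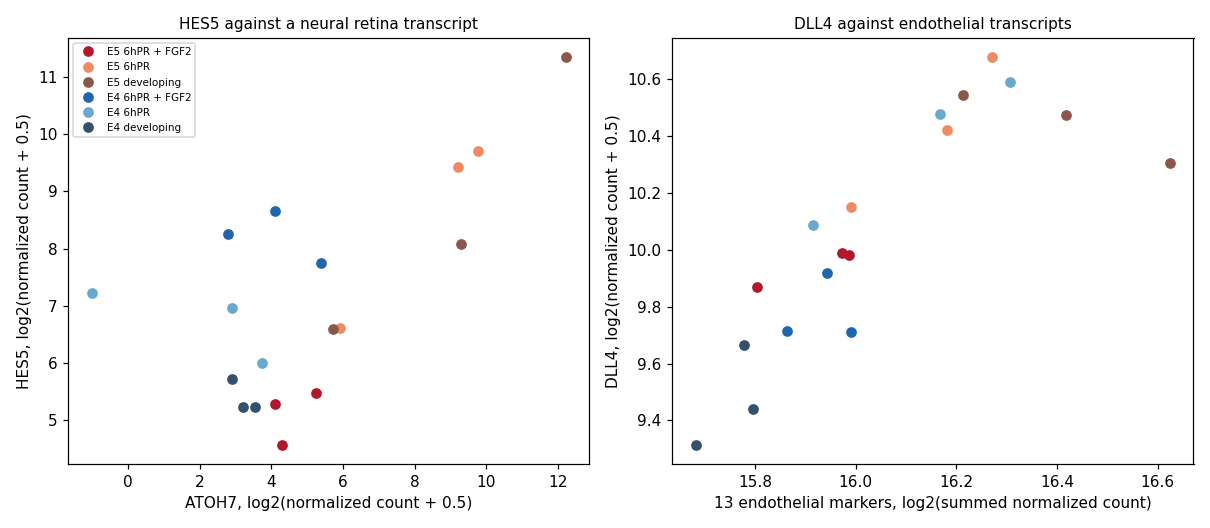
Left, *HES5* (vertical axis) against *ATOH7* (horizontal axis), both as log2 of the normalized count plus 0.5, and right, *DLL4* against the summed normalized count of 13 endothelial markers on log2 axes, with a point per library coloured by group. The 3 libraries of E4 6hPR + FGF2 held *HES5* at 215 to 404 with *ATOH7* at 6.47 to 41.2, and the highest *HES5* and *ATOH7* stood together in E5 developing replicate 2. *NEUROD1*, another neuron marker that is not plotted, had 227, 265 and 425 in E4 6hPR + FGF2.

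*HEY1*, a hairy-related repressor that Notch induces in vessels, mesenchyme and other tissues, was lower in 6hPR + FGF2 at both stages and in 6hPR at E5. It had 4758, 4795 and 2856 normalized counts in E5 6hPR + FGF2 and 4843, 4839.8 and 4605 in E5 6hPR, against 7279.6, 7056 and 9850.3 in E5 developing RPE. No treated library reached the lowest developing library, and the log2 fold changes were −0.99 (SE 0.16, adjusted p = 0.00030) for 6hPR + FGF2 and −0.74 (SE 0.16, adjusted p = 0.0044) for 6hPR. At E4 it had 5218, 5810.0 and 5104 in 6hPR + FGF2 and 7485, 6945 and 6664 in 6hPR, against 9377, 9536 and 8578 in developing RPE. These groups did not overlap either, with −0.77 (SE 0.16, adjusted p = 0.0032) for 6hPR + FGF2, which was called, and −0.38 (SE 0.16, adjusted p = 0.14) for 6hPR, which was not. The stage difference in its response to 6hPR + FGF2 was not called, at −0.22 (SE 0.23, adjusted p = 0.62). Nor was that in its response to 6hPR, at −0.36 (SE 0.23, adjusted p = 0.46). Between 6hPR + FGF2 and 6hPR *HEY1* was not called at E5 (−0.24, SE 0.16, adjusted p = 0.29) or E4 (−0.39, SE 0.16, adjusted p = 0.17). *HEY1* was lower in E5 than in E4 6hPR, at −0.56 (SE 0.16, adjusted p = 0.023). The E5 call with FGF2 was lost in a fit of the compared groups alone (adjusted p 1.3e-07 to 0.064 over the 12 settings). The stage call within 6hPR was lost in the fit without the 3 libraries (adjusted p 0.0048 to 0.086 over the 12 settings), and without E5 6hPR replicates 1, 2 or 3 or E4 6hPR replicate 1 (adjusted p 0.0509 to 0.080). The gene most like *HEY1* was *FLI1* (r = 0.93), an ETS factor of endothelial and blood lineages, and the collagen receptor *DDR2* followed (r = 0.92). With the summed lists *HEY1* had r = 0.198 for the endothelial and −0.0049 for the mesenchyme markers. In every library *COL1A2* and *COL3A1* had the highest counts of the mesenchyme list and so weighed most in its sum. In E4 6hPR + FGF2 against E4 developing RPE, where *HEY1* was lower, 4 of 13 endothelial markers were higher and 1 lower (beside 9.82% and 10.2% of all genes). Of the 11 periocular mesenchyme markers, 5 were lower in E5 6hPR + FGF2 than in E5 developing RPE (beside 13.7% of all genes), and at E4 5 were lower and 3 higher (beside 10.2% and 9.82%). The median log2 fold change of the 11 was −0.58 at E5 and −0.49 at E4. The markers differed at E4, where *FOXC2* had 1451, 2492 and 2067 in 6hPR + FGF2 against 3804, 4053 and 3230 in developing RPE. *COL3A1* had 57877, 47172 and 41342 against 22103, 22521 and 19055. The 11 summed to 105256 to 174753 in E5 6hPR + FGF2 and 145686 to 215258 in E5 developing RPE, and 138155 to 160194 in E4 6hPR + FGF2 and 103636 to 117711 in E4 developing RPE, with no marker at 0. The part of mesenchyme and endothelial RNA in the differences of *HEY1* was not tested.

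*HEY2*, the relative of *HEY1* known for arterial and cardiac cells, was lower with FGF2 at E5. It had 222, 247 and 198 normalized counts in E5 6hPR + FGF2, against 322, 375 and 289 in E5 6hPR and 326, 273 and 325 in E5 developing RPE. The 6hPR + FGF2 libraries lay below both other groups, at −0.56 (SE 0.15, adjusted p = 0.016) against 6hPR and −0.47 (SE 0.15, adjusted p = 0.032) against developing RPE. At E4 it had 269, 267 and 315 in 6hPR + FGF2, 386, 372 and 292 in 6hPR and 243, 263 and 246 in developing RPE, and no E4 comparison was called, that of 6hPR against developing RPE at 0.47 (SE 0.15, adjusted p = 0.055). This difference was called in 4 of the 12 settings, namely the filter at a mean of 10, limma without the trend, the fit without the 3 libraries and DESeq2 (lowest adjusted p = 0.012), and without E4 6hPR replicate 3 (adjusted p = 0.028). The call against E5 6hPR was lost without E5 6hPR + FGF2 replicate 3 or E5 6hPR replicate 2 (adjusted p 0.062 to 0.079). That against E5 developing RPE was lost in a fit of the compared groups alone (adjusted p 0.0044 to 0.11 over the 12 settings), and without E5 6hPR + FGF2 replicates 1 or 3 or E5 developing replicates 1 or 3 (adjusted p 0.074 to 0.12). Among the genes most like *HEY2* were the endothelial genes *PCDH12* (r = 0.84) and *SOX18* (r = 0.81), and *HEY2* had r = 0.67 with the summed endothelial list described above. The part of endothelial RNA in its differences was not tested.

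Of 44 other names in the pathway, 37 were measured, and *NOTCH3*, *DLL3*, *PSENEN*, *MAML1*, *MAML3*, *NUMBL* and *DTX3* were not analysed here. Counts of their calls are given with the share of the 37 and the share of all genes tested. In E5 6hPR + FGF2 against E5 developing RPE, 9 of the 37 were higher (24.3%, beside 15.1% of all genes) and 8 lower (21.6%, beside 13.7%), with a median log2 fold change of 0.11, against −0.48 for the 10 members and 0.00 for all genes tested. In the same comparison at E4, 5 of the 37 were higher (13.5%, beside 9.82% of all genes) and 4 lower (10.8%, beside 10.2%), with medians of −0.05 for the list, 0.06 for the members and −0.01 for all genes. In 6hPR against developing RPE, 4 of the 37 were higher (10.8%, beside 9.92% of all genes) and 4 lower (10.8%, beside 9.09%) at E5. At E4, 4 of the 37 were higher (10.8%, beside 5.68% of all genes) and 3 lower (8.11%, beside 7.90%) in that comparison. Between 6hPR + FGF2 and 6hPR, 8 of the 37 were higher (21.6%, beside 13.9% of all genes) and 5 lower (13.5%, beside 12.3%) at E5, and 3 of the 37 were higher (8.11%, beside 4.99% of all genes) and 3 lower (8.11%, beside 3.28%) at E4. Between E5 and E4, 15 of the 37 were higher (40.5%, beside 16.7% of all genes) and 7 lower (18.9%, beside 12.8%) in 6hPR + FGF2. In 6hPR, 4 of the 37 were higher (10.8%, beside 11.3% of all genes) and 1 lower (2.70%, beside 8.41%) at E5 than at E4, and in developing RPE 7 of the 37 were higher (18.9%, beside 10.8% of all genes) and 3 lower (8.11%, beside 11.1%). Several of these shares lay close to those of all genes, such as those of the higher genes at E5 in 6hPR. Taking up to the 3 largest calls in each direction per comparison among genes with a mean of 50 or more gave 60 calls, of which 30 held under every setting and without every single library.

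*HES1*, *HES4* and *HEYL* are relatives of the target genes above. In E5 6hPR + FGF2, *HES1* and *HES4* were lower than in E5 developing RPE and *HEYL* was lower than in E5 6hPR. In contrast, *NRARP*, a Notch target whose product limits the signal, was higher with FGF2 than in 6hPR at both stages. *NRARP* had 379, 433 and 347 normalized counts in E5 6hPR + FGF2, 246, 208 and 185 in E5 6hPR and 325, 385 and 282 in E5 developing RPE. It was higher with FGF2 than in 6hPR by 0.86 (SE 0.16, adjusted p = 0.0011), lower in 6hPR than in developing RPE at −0.63 (SE 0.16, adjusted p = 0.0093), and not called between 6hPR + FGF2 and developing RPE (0.23, SE 0.16, adjusted p = 0.30). At E4 *NRARP* had 416, 397 and 448 in 6hPR + FGF2, 244, 274 and 241 in 6hPR and 207, 199 and 239.7 in developing RPE. Every FGF2 library was above every other E4 library, by 0.97 (SE 0.16, adjusted p = 0.00042) against developing RPE and 0.73 (SE 0.16, adjusted p = 0.0089) against 6hPR. *HES1*, the repressor that oscillates in neural progenitors, had 1110.0, 1251 and 1494 in E5 6hPR + FGF2, against 1779, 1960.5 and 2518 in E5 developing RPE, a change of −0.69 (SE 0.15, adjusted p = 0.0031). *HES4* changed by −0.75 (SE 0.17, adjusted p = 0.0037) in that comparison and by −0.67 (SE 0.17, adjusted p = 0.011) at E4. Without FGF2 it was also lower, at −0.56 (SE 0.17, adjusted p = 0.038) in E4 6hPR against developing RPE. It was lower in E5 than in E4 developing RPE as well, at −0.61 (SE 0.17, adjusted p = 0.017). *HEYL*, another HEY repressor, had 1559.6, 1713 and 1247 in E5 6hPR + FGF2, against 2309, 2665 and 2668 in E5 6hPR, a change of −0.77 (SE 0.18, adjusted p = 0.0052), and was lower in E5 than in E4 6hPR + FGF2 at −0.82 (SE 0.18, adjusted p = 0.0031). The E5 call of *HES1* was lost in a fit of the compared groups alone (adjusted p 0.00013 to 0.060 over the 12 settings). The E4 call of *HES4* with FGF2 was lost in a fit of the compared groups alone and the fit without the 3 libraries (adjusted p 0.0018 to 0.073 over the 12 settings), and without E4 6hPR + FGF2 replicate 3 or E4 developing replicate 1 (adjusted p up to 0.055). Its call in E4 6hPR was lost in 4 of the 12 settings and without 5 of the 6 libraries taken singly (highest adjusted p = 0.16). That between E5 and E4 developing RPE was lost in 2 settings and without 3 of the 6 libraries (highest adjusted p = 0.084). The call of *NRARP* in E4 6hPR + FGF2 against 6hPR was lost in a fit of the compared groups alone (adjusted p 9.9e-05 to 0.0545 over the 12 settings). That in E5 6hPR against developing RPE was lost in a fit of the compared groups alone and the fit without the 3 libraries (adjusted p 0.00060 to 0.15 over the 12 settings), and without E5 6hPR replicate 3 (adjusted p = 0.0515).

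**Figure D4:**
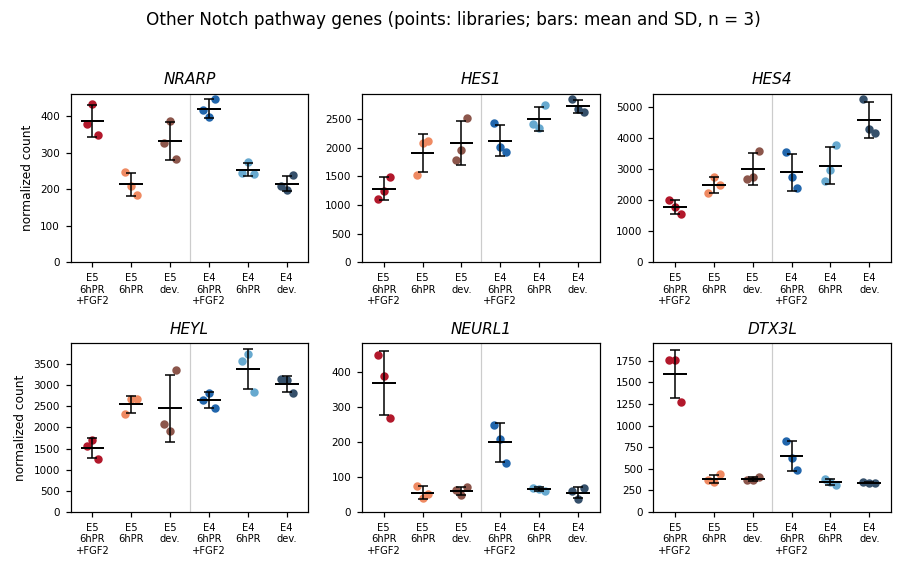
Normalized count (vertical axis) of 6 further pathway genes in the 6 groups (horizontal axis), with a point per library and bars for the mean and SD of 3 libraries. *NRARP* and *NEURL1* were higher in 6hPR + FGF2 than in 6hPR at both stages, as was *DTX3L*, which averaged 1594 in E5 6hPR + FGF2 and 646 in E4 6hPR + FGF2.

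Ubiquitin ligases of the pathway, *NEURL1* and *DTX3L*, had the largest rises of the 37 genes in E5 6hPR + FGF2 against developing RPE. *NEURL1*, of the Neuralized family that drives ligand endocytosis, had 449.6, 390.4 and 269 normalized counts in E5 6hPR + FGF2, against 74.9, 39.3 and 51.4 in E5 6hPR and 63.8, 49.0 and 70.8 in E5 developing RPE, and its change against developing RPE was 2.57 (SE 0.31, adjusted p = 1.7e-05). At E4 it had 251, 211 and 140.2 in 6hPR + FGF2, against 70.3, 65.8 and 59.9 in 6hPR and 60.6, 38.5 and 68.6 in developing RPE, with 1.83 (SE 0.31, adjusted p = 0.00061). *DTX3L*, of the Deltex family, rose in E5 6hPR + FGF2 by 2.06 (SE 0.17, adjusted p = 5.7e-07) against developing RPE, and this response was larger than that at E4 by 1.15 (SE 0.25, adjusted p = 0.015). *NEURL1B*, a relative of *NEURL1*, was instead higher in E5 than in E4 developing RPE, at 1332, 831 and 1260.5 against 432, 389 and 393, by 1.47 (SE 0.20, adjusted p = 0.00013). The noncanonical ligand *DLK1* was higher in E5 than in E4 developing RPE by 1.68 (SE 0.28, adjusted p = 0.00050), and the acetyltransferase *KAT2B* by 0.78 (SE 0.12, adjusted p = 0.00029).

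*APH1A* and *PSEN2*, subunits of gamma-secretase, were lower in 6hPR + FGF2 than in 6hPR at E5, and *PSEN2* also at E4. *APH1A* averaged 1527 ± 80.7 normalized counts in E5 6hPR + FGF2 and 2727 ± 310.0 in E5 6hPR (SD, n = 3 each), a change of −0.83 (SE 0.13, adjusted p = 0.00029), and at E4 it changed by −0.68 (SE 0.13, adjusted p = 0.0013) in 6hPR + FGF2 against developing RPE. *PSEN2* averaged 11707 ± 343 in E5 6hPR + FGF2 and 19431 ± 1137 in E5 6hPR, a change of −0.73 (SE 0.08, adjusted p = 1.9e-05), and was higher in E5 than in E4 6hPR by 0.68 (SE 0.08, adjusted p = 5.0e-05). At E4 it averaged 8903 in 6hPR + FGF2 and 12147 in 6hPR, a change of −0.45 (SE 0.08, adjusted p = 0.0028). Developing RPE averaged 9634 at E4 and 16362 at E5. *PSEN2* was higher in 6hPR than in developing RPE by 0.34 (SE 0.08, adjusted p = 0.011) at E4 and 0.25 (SE 0.08, adjusted p = 0.040) at E5. *POFUT1*, which adds O-fucose to NOTCH, was lower in E4 6hPR + FGF2 than in E4 developing RPE at −0.39 (SE 0.07, adjusted p = 0.0011), and *POGLUT1*, which adds O-glucose, was lower in E5 than in E4 developing RPE at −0.36 (SE 0.08, adjusted p = 0.0034). *MAML2*, a Mastermind coactivator, moved the other way, averaging 3689 ± 143 in E5 6hPR + FGF2 and 1705 ± 356 in E5 developing RPE, a rise of 1.13 (SE 0.13, adjusted p = 1.1e-05). The call of *PSEN2* in E4 6hPR + FGF2 against 6hPR was lost in 1 of the 12 settings (highest adjusted p = 0.087) and held without each single library. Its rise in E4 6hPR was lost without 1 of the 6 libraries (adjusted p = 0.0525). That in E5 6hPR was lost in 3 settings and without 5 of the 6 libraries (highest adjusted p = 0.28). The other calls given here of *APH1A*, *PSEN2*, *POFUT1*, *POGLUT1* and *MAML2* held under all 12 settings and without each single library.

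The genes most like the remaining members, over the same 18 libraries, were *INKA2* (r = 0.88) for *DLL1*, which also had *DLL4* among its 5 nearest genes (r = 0.81), *FGFR2* (r = 0.89) for *JAG1*, *DOCK9* (r = 0.91) for *JAG2*, *ZBTB18* (r = 0.92) for *NOTCH1*, *PLXNA1* (r = 0.94) for *NOTCH2* and *SRSF6* (r = 0.93) for *LFNG*. *NOTCH2* also had *PRDM16* among its 5 nearest genes (r = 0.92). These correlations describe shared group differences and depth as well as any likeness of the genes.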

How the data were processed

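The deposited values were reads per gene scaled by the authors, a signal in normalized counts. Cutadapt and Trim Galore had removed adapters, STAR had placed the reads on GRCg6a, StringTie had given reads for Ensembl genes, genes with fewer than 10 raw counts had been removed, and DESeq2 size factors had set the libraries to a common depth, per the study's methods. Tool versions are not given in the sources used here. Each library's values were multiples of one step, the worth of 1 read, and 100% of them came within 1e-06 of a whole number of reads, so these recovered reads served edgeR and DESeq2. All 18 columns were used.

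The main test was limma 3.58.1 (R 4.3.3) on log2 of the value plus 0.5, with 6 group means over 18 libraries and a mean-variance trend. Genes whose values summed to under 10 were left out, which kept 18287. P values were adjusted by Benjamini-Hochberg within each of 12 comparisons, and a gene was called at 0.05 or less. The 12 settings tried were pseudocounts of 1 and 5, no filter, a mean of 10 or more, TMM scaling, quantile normalization, no trend, only the groups compared, a replicate block, leaving out the 3 libraries that stood apart, edgeR 4.0.16 and DESeq2 1.42.0. SD is between the 3 libraries of a group.

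All members are described. A gene of the pathway list that stays in its counts is not reported here by name. Of the pathway list, up to 3 calls higher and 3 lower per comparison by size, with a mean of 50 or more, could be named, and the 5 genes most like a member by Pearson correlation of log2 values. The members and lists were chosen with earlier results of these data known. Gene lengths were not used, so levels are compared within a gene only. Names matched RefSeq (GRCg7b) for all 10 members, which served only to find overlapping genes.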

Additional observations from a re-analysis of the deposited data

Results flagged for a closer look

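The genes below stood out because a response differed between E5 and E4 in a test of that difference (limma, Benjamini-Hochberg adjusted). Values are the log2 fold change at E5 minus that at E4, and the cause was not tested.

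For the response to 6hPR + FGF2 against developing RPE, *HES5* had a difference of −6.38 (SE 1.32, adjusted p = 0.012). *DLL1* had a difference of −1.41 (SE 0.23, adjusted p = 0.0036), *DLL4* of −0.80 (SE 0.21, adjusted p = 0.037) and *LFNG* of −0.54 (SE 0.15, adjusted p = 0.0468). Of the other pathway genes, the ubiquitin ligase *DTX3L* had 1.15 (SE 0.25, adjusted p = 0.015) and the coactivator *MAML2* 0.83 (SE 0.19, adjusted p = 0.019). *NEURL1B*, another ubiquitin ligase, had −1.10 (SE 0.28, adjusted p = 0.035).

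For the response to 6hPR against developing RPE, the differences were −0.92 (SE 0.23, adjusted p = 0.0456) for *DLL1* and −0.94 (SE 0.21, adjusted p = 0.026) for *DLL4*. They were −1.16 (SE 0.28, adjusted p = 0.040) for *NEURL1B* and −0.87 (SE 0.22, adjusted p = 0.046) for *NRARP*, a feedback inhibitor of the pathway. For the change between 6hPR and 6hPR + FGF2 the difference was 1.17 (SE 0.25, adjusted p = 0.031) for *DTX3L*.

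The *DTX3L* difference in the 6hPR + FGF2 response was kept in all 12 settings and without each library, and that of *MAML2* was lost without E4 developing replicate 2 (adjusted p = 0.059). For *NEURL1B* in the 6hPR + FGF2 response the call was lost in 2 of the 12 settings (highest adjusted p = 0.064) and without 9 of the 12 libraries taken singly (highest adjusted p = 0.085). For *NEURL1B* in the 6hPR response the call was lost in 3 of the 12 settings (highest adjusted p = 0.08) and without 9 of the 12 libraries taken singly (highest adjusted p = 0.11). For *NRARP* in the 6hPR response the call was lost in 5 of the 12 settings (highest adjusted p = 0.17) and without 10 of the 12 libraries taken singly (highest adjusted p = 0.12). For *DTX3L* in the change between 6hPR and 6hPR + FGF2 the call was lost in 1 of the 12 settings (highest adjusted p = 0.084) and without 7 of the 12 libraries taken singly (highest adjusted p = 0.096). Limits of the values of *HES5*, *DLL1*, *DLL4* and *LFNG* are given with each gene.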

How the results depend on the processing

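Of the 37 calls of members, 11 held under all 12 settings and without each library, and 0 changed direction. The compared groups alone ended 16 calls and added 8, leaving out the 3 libraries that stood apart 8 and 6, no trend 7 and 1, quantile normalization 3 and 4, edgeR 2 and 2, TMM 1 and 2, DESeq2 0 and 9, and the filter at a mean of 10 ended 0 and added 3. Both other pseudocounts and no filter changed no call. The replicate numbers do not pair the libraries (5 of 27 same-numbered pairs correlated above 0.1, and in 1 comparison each library correlated best with its own number). A replicate block ended 4 calls and added 0. The calls it ended were *LFNG* in E4 6hPR against developing RPE (adjusted p = 0.0503), *JAG1* in E5 against E4 6hPR (adjusted p = 0.060), and the stage differences of *LFNG* for the 6hPR + FGF2 response (adjusted p = 0.060) and of *DLL1* for the 6hPR response (adjusted p = 0.066), and it left 1 member called for E5 against E4 6hPR and 1 for the 6hPR response.

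The compared groups alone called 2 members in E5 6hPR + FGF2 and 1 in E5 6hPR against developing RPE, 0 in E4 6hPR + FGF2 against 6hPR, 5, 1 and 1 between the stages in 6hPR + FGF2, 6hPR and developing RPE, and 0 for the 6hPR response and 3 for the added FGF2 step (6hPR + FGF2 over 6hPR). Quantile normalization called 6 between the stages in 6hPR + FGF2, 1 for the 6hPR response and 1 for the step. No trend called 1 between the stages in 6hPR, 2 for the 6hPR + FGF2 response and 1 for the 6hPR response. Without the 3 libraries these were 1, 2 and 0, with 1 for the step. DESeq2 called 2 in E4 6hPR + FGF2 against 6hPR and 4 for the step, and edgeR and the mean of 10 called 1 each for the step. Leaving out single libraries gave 1 to 4 and 0 to 1 calls for 6hPR + FGF2 against 6hPR at E5 and E4, 1 to 3 and 2 to 4 for 6hPR + FGF2 and 6hPR against developing RPE at E4, 0 to 2 and 3 to 6 between the stages in 6hPR and developing RPE, 2 to 5 and 0 to 2 for the 6hPR + FGF2 and 6hPR responses, and 0 to 1 for the step.

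Values that were not called changed sign, and *HES5* in E5 6hPR against developing RPE was then called without the 3 libraries (adjusted p = 0.020). These libraries held the highest *HES5* of E5 developing RPE and the lowest of E5 6hPR. Without the 3 libraries E5 6hPR against developing RPE was 0.32 for *DLL1*, 0.16 for *DLL4* and 2.22 for *HES5*, and the stage difference in the 6hPR response was 0.89 for *HES5* and 0.027 for *LFNG*. *JAG2* in E5 6hPR + FGF2 against 6hPR was −0.047 with quantile normalization, −0.16 without the 3 libraries, −0.023 in edgeR and −0.013 in DESeq2, and in E4 6hPR + FGF2 against developing RPE it was 0.017 with TMM. With quantile normalization *NOTCH2* was 0.013 in E4 6hPR against developing RPE and −0.011 in E5 against E4 6hPR, and *NOTCH1* 0.044 for the step. Leaving out single libraries gave, in E5 6hPR against developing RPE, −0.19 to 0.19 for *DLL1*, −0.16 to 0.11 for *DLL4*, −1.13 to 1.24 for *HES5* and −0.0083 to 0.18 for *HEY2*. In E5 6hPR + FGF2 it gave −0.25 to 0.032 for *NOTCH2* against developing RPE, and −0.16 to 0.14 for *JAG2* and −0.37 to 0.0048 for *HEY1* against 6hPR. It gave −0.096 to 0.081 for *JAG2* in E4 6hPR + FGF2 against developing RPE, and between the stages −0.0016 to 0.30 for *JAG1* in 6hPR + FGF2, −0.014 to 0.21 for *DLL1* and −0.12 to 0.16 for *DLL4* in 6hPR and −0.17 to 0.089 for *LFNG* in developing RPE. Stage differences ran from −0.34 to 0.032 for the *HEY1* response to 6hPR + FGF2, from −0.28 to 0.0023 for that of *NOTCH2* to 6hPR, and from −0.10 to 0.011 for the *NOTCH1* step. The cause was not tested.

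Counts over all genes moved by more than 1.5 times in some settings. With the compared groups alone they were 2756 (main 5261) for E5 6hPR + FGF2 and 1270 (main 3476) for E5 6hPR against developing RPE, 197 (main 1512) for E4 6hPR + FGF2 against 6hPR and 1760 (main 4015) for developing RPE between the stages. The count for E5 6hPR + FGF2 against 6hPR was 3112 (main 4798) without the 3 libraries, and DESeq2 gave 2296 for the same comparison at E4. The ranges over settings were 677 to 1892 (main 1016) for the 6hPR + FGF2 response, 283 to 1294 (main 546) for the 6hPR response and 73 to 2437 (main 465) for the step. Leaving out 1 library moved such counts too. The step had 46 calls without E5 6hPR + FGF2 replicate 1 and 1970 without E4 6hPR replicate 2. The 6hPR + FGF2 response had 446 without E4 developing replicate 2 and 2273 without E5 developing replicate 1, and the 6hPR response 244 without E5 6hPR replicate 3. The lowest counts were 749 for E4 6hPR + FGF2 against 6hPR without E4 6hPR replicate 1, 2929 (main 4798) for that comparison at E5 without E5 6hPR replicate 2, 1554 (main 2483) for E4 6hPR against developing RPE without E4 developing replicate 1, and 2366 (main 3600) between the stages in 6hPR without E4 6hPR replicate 3. With 3 libraries per group and an SE of 0.93 for *HES5* in each comparison of 2 groups, its small differences were not detectable. The spread behind this SE was shared by all groups, and in E5 developing RPE *HES5* ran from 96.5 to 2598.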
